A study of Mus musculus with 12 samples.

Results

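The genes described here are Bmp4, its type I receptor gene Bmpr1a, the signal transducers Smad1 and Smad5, the inhibitor Smad6, and the target genes Id1, Id2 and Id3. They were chosen by name, and every array probe whose annotation names 1 of them was taken. These were 8 genes of the 18524 named on the array and 16 probes of its 45281. Of the 16 probes, 11 passed the filter on detection, and they left 7 of the 8 genes among the 11089 features tested, since Smad6 did not pass.

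BMP4 is a secreted ligand of the TGF-β superfamily. It brings together type I and type II receptor kinases at the cell surface, and the type I receptor phosphorylates SMAD1 and SMAD5, which enter the nucleus with SMAD4 and bind target genes. SMAD6 blocks this step. The Id genes are direct targets of the pathway, and encode helix-loop-helix proteins without a DNA-binding region that hold E proteins in inactive pairs. In mouse embryonic stem cells (ESCs), BMP4 acts through Id proteins, together with LIF, to hold cells undifferentiated, and serum can stand in for added BMP4. In the embryo, the epiblast is patterned by BMP4 from the neighbouring extraembryonic ectoderm.

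RNA was measured on 12 Illumina MouseWG-6 v2 bead arrays, 3 for each of 4 groups. All but 1 of the groups were sorted from 1 ESC line, E14Tg2a Esrrb-2a-GFPd-IBIH, in which a short-lived GFP was placed behind the coding sequence of both Esrrb alleles. These cells were plated at 3000 per cm2 and grew for 3 days in LIF and serum (FCS), and SSEA-1 positive cells were separated by GFP into EsrrbHi (high), EsrrbMed (medium) and EsrrbNeg (negative). The remaining group held epiblast stem cells (EpiSC), the cultured form of the postimplantation epiblast, from the line TNG Esrrb-2a-TdTomato in N2B27 medium with Activin and FGF. TNG cells carry a reporter knocked into a single Nanog allele, and the study gives them as Nanog+/−. It describes the EpiSC as embryo-derived at the late bud stage. Line, Nanog genotype, medium, sorting and cell state therefore changed together in every comparison with EpiSC and cannot be told apart. The ESC arrays of replicates 1 and 2 were on chip 1, and those of replicate 3 were on chip 2 with every EpiSC array. A legend of the study calls its experiments independent. The labels do not say that replicates were separate cultures, and if they were not, the p-values reflect only a technical spread between these samples.

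Levels are log2 intensities after background correction and quantile normalization. Differences are log2 values ± standard error from a single limma fit over all 12 arrays with a term for chip, n = 3 arrays per group, and p-values are adjusted (Benjamini-Hochberg) over the 11089 features. Calls required both a difference of 1.5-fold or more and an adjusted p no higher than 0.05. The arrays detected 13333 to 15393 probes each, and replicate arrays correlated at 0.986 to 0.995. Esrrb, whose reporter set the sort, averaged 11.95 and 11.27 in EsrrbHi and EsrrbMed against 5.64 in EsrrbNeg and 6.33 in EpiSC, and Pou5f1, a pluripotency factor common to both cell states, averaged between 10.83 and 11.29. Fgf5, a marker of the primed state, averaged 4.47, 4.66, 7.64 and 10.26 in the same order, and Nanog, a naive factor that EpiSC keep at a lower level, 10.80, 10.11, 8.20 and 9.25. The EpiSC line is Nanog+/−, and the part of that genotype in its Nanog level was not tested. Fgf5 was detected on 0 arrays of EsrrbHi and 0 of EsrrbMed, so its values there are at background. It passed the filter only through EsrrbNeg and EpiSC, and the order of Esrrb in the ESC fractions follows from the sort. These levels describe the groups and do not test their labels. In a bulk sample, fewer expressing cells and less RNA per cell cannot be told apart.

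Printed here are the promoters of Bmp4, the member whose level fell furthest across the sorted cells, and of Id2 and Id3. They are from the RefSeq promoter table for GRCm38.p6, which matched 7 of the 8 members with 9 promoters and holds none for Id1. Each runs from 250 bases before the annotated start to 50 after it, 5′ to 3′ along the gene's strand. Capitals mark the letters GTCT, the box that SMAD proteins bind, and GGCGCC, a GC-rich site of SMAD1 and SMAD5, on either strand.
Bmp4, chr14:46390620-46390919, minus strand: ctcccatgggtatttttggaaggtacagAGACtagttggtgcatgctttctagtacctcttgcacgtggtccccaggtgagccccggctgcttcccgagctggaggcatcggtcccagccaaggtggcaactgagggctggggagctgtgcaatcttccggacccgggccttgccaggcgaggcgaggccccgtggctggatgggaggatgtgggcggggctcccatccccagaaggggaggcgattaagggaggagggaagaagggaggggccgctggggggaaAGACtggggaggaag
Id2, chr12:25096043-25096342, minus strand: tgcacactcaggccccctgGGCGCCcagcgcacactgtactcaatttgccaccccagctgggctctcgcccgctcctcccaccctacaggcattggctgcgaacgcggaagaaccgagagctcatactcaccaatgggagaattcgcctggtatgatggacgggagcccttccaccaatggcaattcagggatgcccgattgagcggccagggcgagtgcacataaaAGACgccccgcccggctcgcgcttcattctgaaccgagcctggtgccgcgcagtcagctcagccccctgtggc
Id3, chr4:136143572-136143871, plus strand: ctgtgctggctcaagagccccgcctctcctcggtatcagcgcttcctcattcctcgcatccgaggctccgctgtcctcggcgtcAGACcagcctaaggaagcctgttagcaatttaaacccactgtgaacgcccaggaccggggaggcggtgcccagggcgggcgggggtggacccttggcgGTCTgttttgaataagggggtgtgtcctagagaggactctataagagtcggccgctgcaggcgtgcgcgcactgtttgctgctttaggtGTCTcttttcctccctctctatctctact
The GTCT box occurred 2 times in the Bmp4 window, 1 time in that of Id2 and 3 times in that of Id3, and 88.0% of the 32851 promoters in the table hold at least 1. GGCGCC occurred once in the Id2 window and in neither of the others, against 11.9% of all promoters. It was also found once in the windows of Bmpr1a and of Smad5, where 2 overlapping promoters share it. The letters AAGGTCA, the core of the motif that ESRRB binds, were searched on both strands as well and were in none of the 9 member windows, against 4.72% of all promoters. The motifs do not overlap one another. These are matches of letters in a short window and not sites of binding.

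Between the sorted ESC fractions, Bmp4 was the called member among the 7 genes tested, and it was lower in EsrrbNeg. Of the 7, 0 were called in EsrrbMed against EsrrbHi (limma; 1 had an unadjusted p under 0.05), where 1.18% of all features were called, 0.478% higher and 0.703% lower. In EsrrbNeg against EsrrbMed 1 was called, lower, against 11.9% of all features (5.73% higher and 6.17% lower). In EsrrbNeg against EsrrbHi it was again 1, lower, against 18.1% (9.06% higher and 9.06% lower). The called gene was Bmp4 both times. With replicate number as a block, 2, 1 and 2 of the 7 were called in these comparisons, against 1.37%, 12.0% and 18.2% of all features. The median difference of the 7 was 0.17, 0.19 and 0.36, and that of all features 0.01, 0.01 and 0.03. The 3 ESC comparisons share arrays and are not independent of one another.

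Against EpiSC more members were called than between ESC fractions, and more of all features were called as well. In EpiSC against EsrrbNeg, 2 of 7 were called, 0 higher and 2 lower, where 21.0% of all features were called, 12.1% higher and 8.96% lower. In EpiSC against EsrrbMed, 5 were called, 2 higher and 3 lower, against 30.5% of all features (17.1% higher and 13.4% lower). In EpiSC against EsrrbHi, 5 were called, 3 higher and 2 lower, against 33.4% (18.5% higher and 14.9% lower). The median difference of the 7 was 0.08, −0.41 and −0.13 in these comparisons, while that of all features lay between −0.01 and 0.01. These comparisons share the EpiSC arrays.

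**Figure D1:**
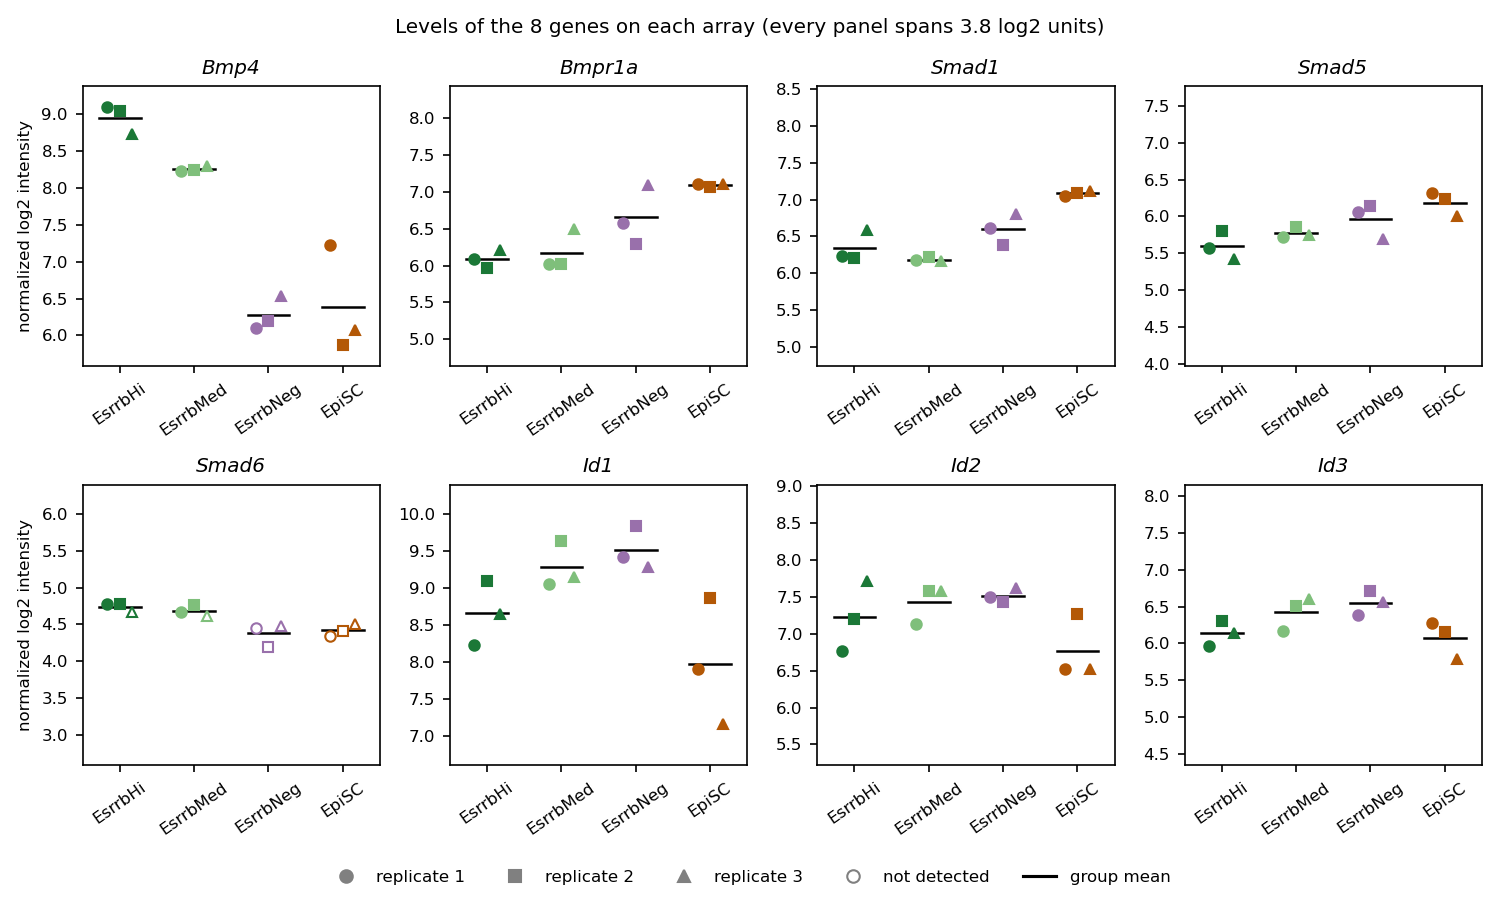
Normalized log2 intensity (y axis) of the 8 genes in each group (x axis), 1 point per array with the marker giving the replicate number, an open marker where the probe was not detected and a line at the group mean. Bmp4 runs from 9.10 in the brightest EsrrbHi array to 6.10 in the dimmest EsrrbNeg array, the Id genes are lowest on average in EpiSC, and Smad6 reads 4.78 at most.

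The ligand Bmp4 (probe ILMN_1215252) read 9.10, 9.04 and 8.73 in replicates 1, 2 and 3 of EsrrbHi, 8.23, 8.24 and 8.29 in EsrrbMed, and 6.10, 6.19 and 6.54 in EsrrbNeg. The 3 fractions did not overlap, and the order of the groups was the same within each replicate number. EpiSC read 7.22, 5.87 and 6.07, a wider spread (SD 0.73) that enclosed all EsrrbNeg arrays and lay below all EsrrbMed arrays. Bmp4 was 6.40-fold lower in EsrrbNeg than in EsrrbHi (−2.68 ± 0.26, adjusted p = 3.32e-06) and 3.94-fold lower than in EsrrbMed (−1.98 ± 0.26, adjusted p = 8.31e-05). On chip 1 alone these differences were −2.92 and −2.09, both called. On chip 2 alone each ESC group has 1 array, and the spread comes from the 3 EpiSC arrays alone. There the differences were −2.19 and −1.76 and did not pass (adjusted p = 0.083 and 0.17), and values from that chip are given for their size.

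The step from EsrrbHi to EsrrbMed was smaller, −0.70 ± 0.26 (adjusted p = 0.187), and was not called. Within replicates 1, 2 and 3 the difference was −0.87, −0.79 and −0.44, so Bmp4 was lower in EsrrbMed in 3 of 3. With replicate number as a block the same difference had an adjusted p of 0.0203 and was called. It was also called without EpiSC replicate 1 (adjusted p = 0.0173), the EpiSC array with the highest Bmp4, and on chip 1 alone (−0.83, adjusted p = 0.00667), while chip 2 gave −0.44.

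In EpiSC, Bmp4 was 6.04-fold lower than in EsrrbHi (−2.59 ± 0.30, adjusted p = 8.90e-06) and 3.71-fold lower than in EsrrbMed (−1.89 ± 0.30, adjusted p = 0.000161). Its difference from EsrrbNeg was 0.08 ± 0.30 (adjusted p = 0.844), with a 95% interval from −0.57 to 0.74. Without EpiSC replicate 1 that difference was −0.33. The order of the group means was EsrrbHi, EsrrbMed, EpiSC, EsrrbNeg. Its neighbours EpiSC and EsrrbNeg were not separated.

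The second Bmp4 probe (ILMN_1235698) gave EsrrbHi above EsrrbMed, and both above the other groups, at a lower signal. It read 5.90, 6.09 and 5.39 in EsrrbHi and 5.22, 5.30 and 5.36 in EsrrbMed. On no array of EsrrbNeg or EpiSC was it above background. The probe passed the filter only through EsrrbHi and EsrrbMed, so its differences from the other groups are a description. They are bounds, taken from the mean of the detected group and the lowest signal among detected probes on each undetected array. Bmp4 was by this probe at least 2.23-fold lower in EsrrbNeg than in EsrrbHi and at least 1.58-fold lower than in EsrrbMed. For EpiSC the bounds were 2.17-fold against EsrrbHi and 1.54-fold against EsrrbMed.

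The receptor gene Bmpr1a was higher in EpiSC by its brighter probe (ILMN_1251119). This probe read 6.09, 5.96 and 6.21 in EsrrbHi, 6.02, 6.02 and 6.49 in EsrrbMed, 6.57, 6.29 and 7.09 in EsrrbNeg, and 7.11, 7.06 and 7.11 in EpiSC. EpiSC lay above all EsrrbHi and EsrrbMed arrays, and EsrrbNeg replicate 3 reached the EpiSC level. The difference in EpiSC was 0.72 ± 0.13 against EsrrbHi (1.64-fold, adjusted p = 0.000304) and 0.63 ± 0.13 against EsrrbMed (1.54-fold, adjusted p = 0.000954), both called. The latter was 0.54 without EsrrbHi replicate 3 and the former 0.50, below 1.5-fold in both cases. Of 25 alternative ways of processing, 6 lost the call against EsrrbMed and 5 that against EsrrbHi. The mean over probes was among them (0.27 and 0.45). EpiSC exceeded EsrrbNeg by 0.15 ± 0.13 (adjusted p = 0.361, interval −0.12 to 0.42), which was not called, and these groups overlapped.

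In EsrrbNeg, Bmpr1a was 0.57 ± 0.11 above EsrrbHi (1.48-fold, adjusted p = 0.000952) and 0.48 ± 0.11 above EsrrbMed (adjusted p = 0.00498), which passed the p-value and not the fold. It was higher in EsrrbNeg than in EsrrbHi in 3 of 3 replicates. The call against EsrrbHi was reached without EsrrbNeg replicate 2 (0.69) or EsrrbHi replicate 1 (0.65), and that against EsrrbMed without EsrrbNeg replicate 2 (0.60). The difference of EsrrbNeg from EsrrbHi was 0.41 on chip 1 alone. On chip 2 alone, where each ESC group has 1 array, it was 0.89. The second probe (ILMN_2653312) read 4.83, 5.13 and 5.28 in EsrrbHi, 5.34, 5.30 and 5.42 in EsrrbMed, 5.83, 5.01 and 5.54 in EsrrbNeg, and 5.35, 5.52 and 5.27 in EpiSC. It did not show the rise, at 0.19 ± 0.19 in EpiSC against EsrrbHi (adjusted p = 0.423) and −0.09 ± 0.19 against EsrrbMed (adjusted p = 0.711). The 2 probes of Bmpr1a thus disagree, and its rise in EpiSC rests on 1 of them.

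**Figure D2:**
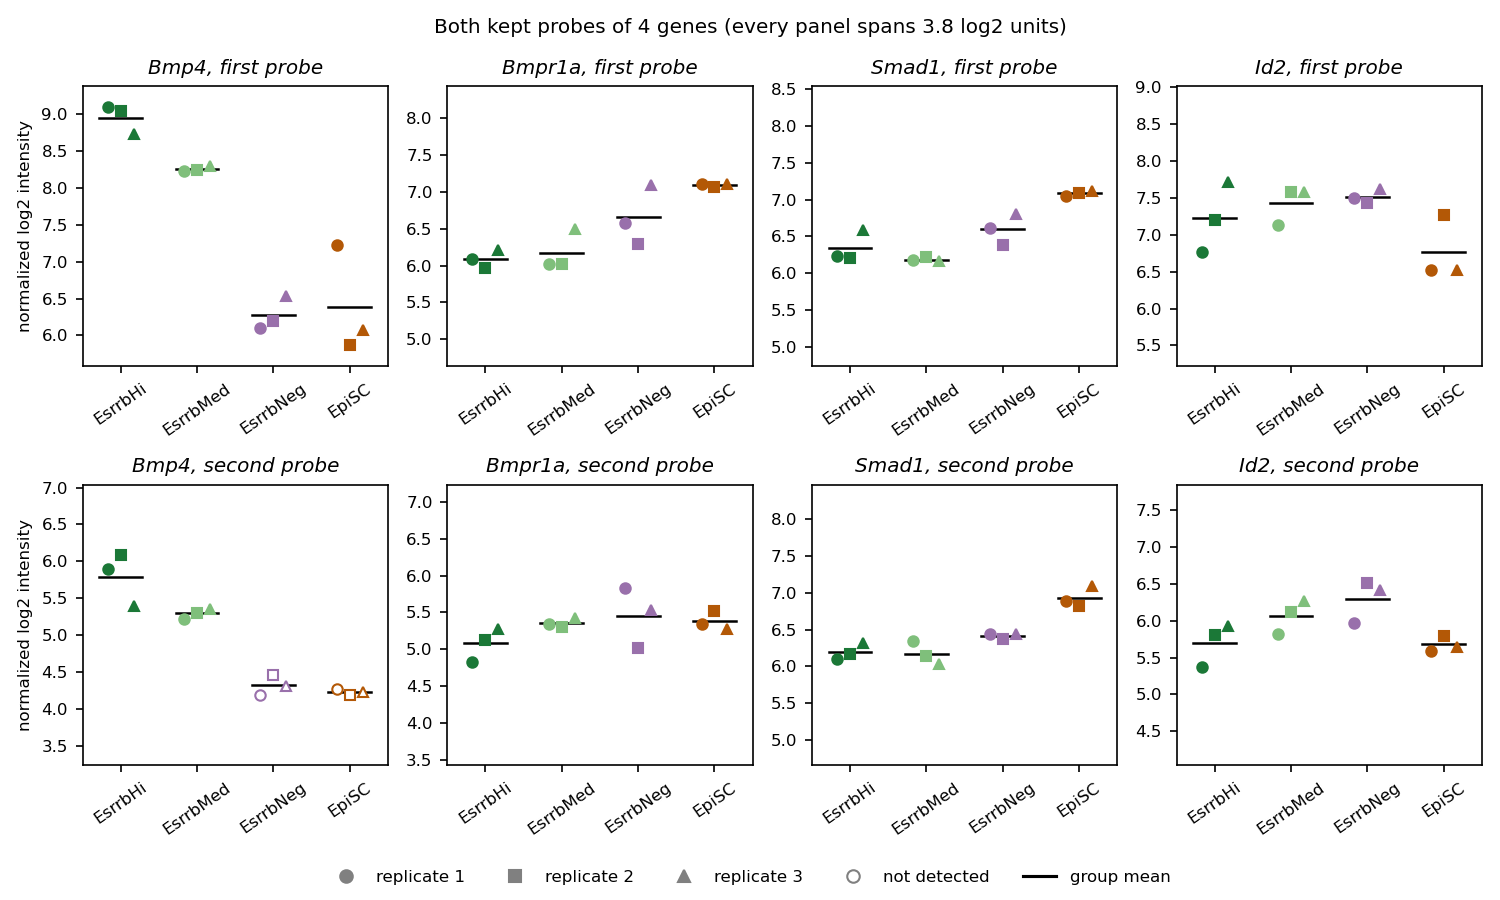
Normalized log2 intensity (y axis) by group (x axis) for both kept probes of Bmp4, Bmpr1a, Smad1 and Id2, 1 point per array with open markers where the probe was not detected and lines at group means. Both Bmp4 probes are highest in EsrrbHi and both Smad1 probes in EpiSC, while the second Bmpr1a probe does not separate EpiSC, at 5.27 to 5.52, from EsrrbMed, at 5.30 to 5.42.

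Smad1, which carries the signal from the receptor to the nucleus, was highest in EpiSC by both kept probes. The brighter probe (ILMN_2953700) read 6.24, 6.21 and 6.58 in EsrrbHi, 6.17, 6.22 and 6.16 in EsrrbMed, 6.62, 6.39 and 6.81 in EsrrbNeg, and 7.05, 7.09 and 7.12 in EpiSC. All EpiSC arrays were above all ESC arrays. The difference was 0.76 ± 0.12 against EsrrbMed (1.69-fold, adjusted p = 0.000106) and 0.60 ± 0.12 against EsrrbHi (1.52-fold, adjusted p = 0.000604), both called, and 0.34 ± 0.12 against EsrrbNeg (adjusted p = 0.0284), under 1.5-fold. The second probe (ILMN_2671572) gave 0.76 and 0.74, both called, and 0.52 ± 0.12 against EsrrbNeg (adjusted p = 0.0046), also under 1.5-fold.

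The call for Smad1 against EsrrbHi sat at the edge of the fold threshold. It was lost, with differences of 0.52 to 0.58, on leaving out any 1 of EsrrbHi replicate 2, EsrrbMed replicate 2, EsrrbMed replicate 3, EsrrbNeg replicate 1 or EpiSC replicate 3. The call against EsrrbMed was lost without EsrrbMed replicate 3 (0.56), and under 5 of 25 alternative ways of processing in all. Within the ESCs Smad1 was 0.42 ± 0.10 higher in EsrrbNeg than in EsrrbMed (adjusted p = 0.00666), below 1.5-fold, and higher in 3 of 3 replicates. A further 2 Smad1 probes were detected on 1 array and on 0 arrays and are not considered.

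Smad5, the partner of Smad1, read 5.58, 5.80 and 5.43 in EsrrbHi, 5.73, 5.85 and 5.75 in EsrrbMed, 6.05, 6.14 and 5.69 in EsrrbNeg, and 6.31, 6.24 and 6.01 in EpiSC (probe ILMN_3155789). Group means rose in that order, and EpiSC lay above all EsrrbHi and EsrrbMed arrays and overlapped EsrrbNeg. EpiSC exceeded EsrrbHi by 0.74 ± 0.13 (1.67-fold, adjusted p = 0.000247), which was called. Under 6 of 25 alternative ways of processing it fell below 1.5-fold. Among these were quantiles without background correction (0.33) and the authors' log2 table (0.27). The difference from EsrrbMed was 0.57 ± 0.13 (1.49-fold, adjusted p = 0.00201), and that from EsrrbNeg 0.38 ± 0.13 (adjusted p = 0.026), neither reaching 1.5-fold. The difference from EsrrbMed passed without EsrrbMed replicate 3 (0.74), EpiSC replicate 3 (0.66) or EsrrbHi replicate 1 (0.59). The second Smad5 probe was detected on 7 arrays and was not tested.

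Smad6, the inhibitor that BMP signalling itself induces, was near the detection limit everywhere. Its only probe (ILMN_3008748) read 4.78, 4.77 and 4.67 in EsrrbHi, 4.66, 4.77 and 4.61 in EsrrbMed, 4.46, 4.20 and 4.48 in EsrrbNeg, and 4.34, 4.41 and 4.51 in EpiSC. It was detected on 2 arrays of EsrrbHi, 2 of EsrrbMed and 0 of the other groups. All EsrrbNeg arrays read below all EsrrbHi and EsrrbMed arrays. No group had it detected on all arrays, so it was not in the fit. Without the filter (31712 features) the fitted difference of EsrrbNeg was −0.36 ± 0.08 from EsrrbHi (adjusted p = 0.0154) and −0.30 ± 0.08 from EsrrbMed (adjusted p = 0.0531), under 1.5-fold and between values at background.

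**Figure D3:**
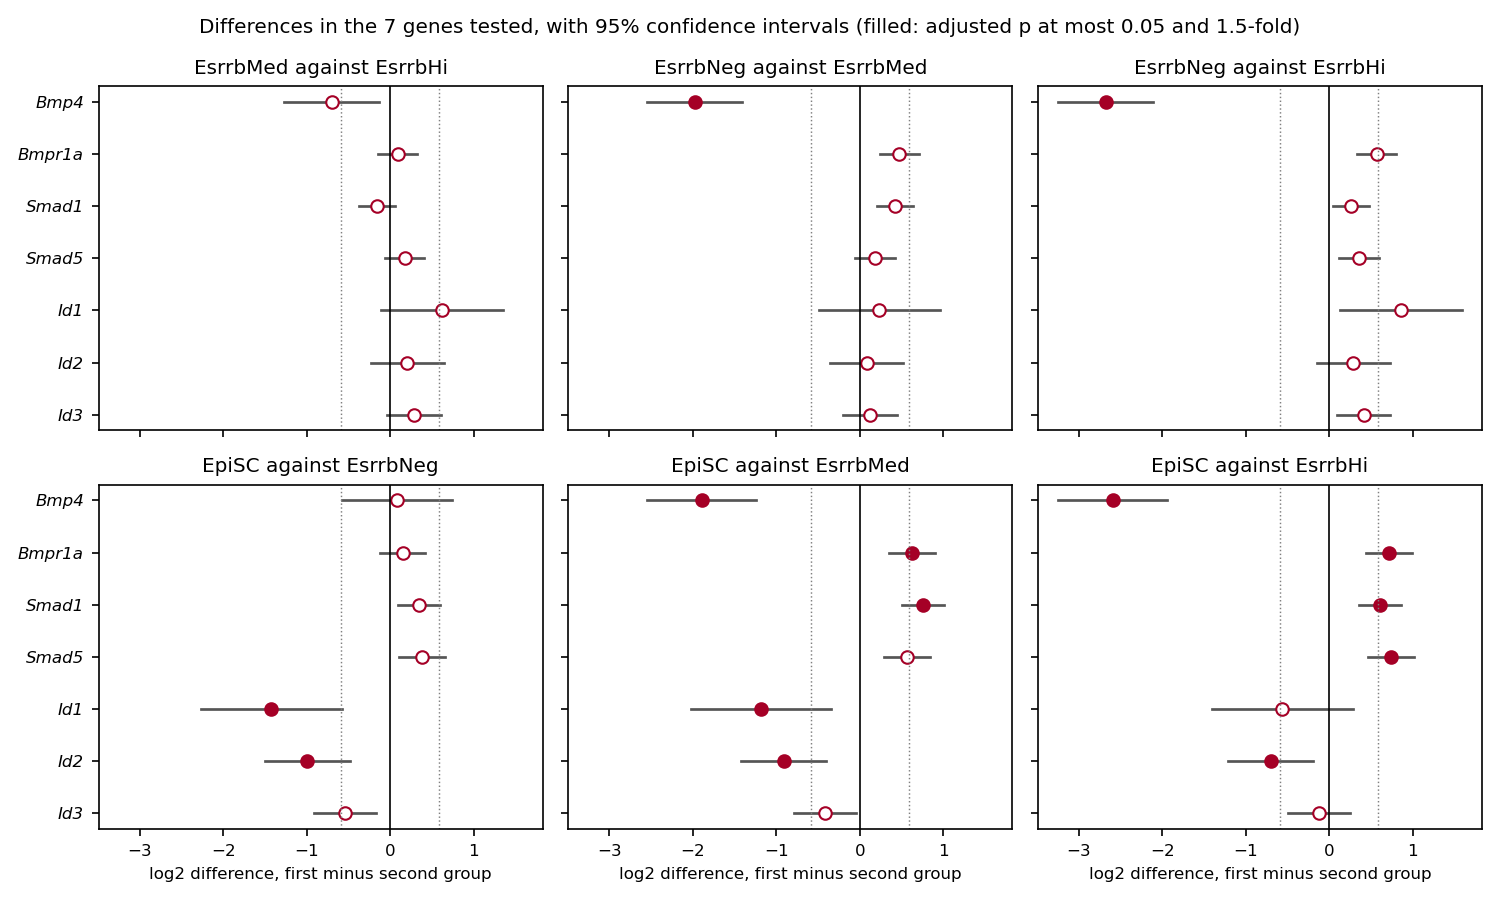
Difference in log2 intensity (x axis) of the 7 tested genes (y axis) in each of the 6 comparisons, with 95% confidence intervals from the limma fit. Filled points were called, dotted lines mark 1.5-fold and intervals are widest for Id1. Bmp4 lies at −2.68 in EsrrbNeg against EsrrbHi and at 0.08 in EpiSC against EsrrbNeg.

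Id1, the brightest of the Id genes here, moved the other way from Bmp4 among the ESC fractions. It read 8.23, 9.09 and 8.65 in EsrrbHi, 9.06, 9.64 and 9.15 in EsrrbMed, 9.42, 9.84 and 9.29 in EsrrbNeg, and 7.90, 8.86 and 7.15 in EpiSC (probe ILMN_2672190). Replicate 2 was the highest array in each of the 4 groups. The EsrrbNeg arrays lay above the EsrrbHi arrays without overlap, and both overlapped EsrrbMed. The level in EpiSC overlapped that in EsrrbHi and lay below all EsrrbMed and EsrrbNeg arrays.

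Whether the rise of Id1 within the ESCs was called depended on the processing and on how the spread between replicates was handled. EsrrbNeg exceeded EsrrbHi by 0.86 ± 0.34 (1.81-fold, adjusted p = 0.0574), which was not called, although the differences within replicates 1, 2 and 3 were 1.19, 0.75 and 0.64. With replicate number as a block the standard error was 0.11 and the adjusted p 8.80e-05, and the difference was called. It was called as well on chip 1 alone (0.97, adjusted p = 0.0195) and without EsrrbHi replicate 2 (1.06), EpiSC replicate 2 (0.86) or EpiSC replicate 3 (0.86). Chip 2 alone gave 0.64. Further calls came with quantiles without background correction (0.75, adjusted p = 0.0494) and an offset of 50 (0.80, adjusted p = 0.0400). The authors' log2 table with or without chip (both 0.74) and the ESC arrays alone (0.86, adjusted p = 0.00638) called it too. In all, 10 of 27 alternatives did so.

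From EsrrbHi to EsrrbMed, Id1 differed by 0.62 ± 0.34 (adjusted p = 0.397), and by 0.82, 0.55 and 0.50 within replicates 1, 2 and 3. This difference too was called with replicate number as a block (adjusted p = 0.0132). EsrrbNeg and EsrrbMed differed by 0.24 ± 0.34 (adjusted p = 0.657), or 0.36, 0.20 and 0.14 within replicates, which was not called with the block either (adjusted p = 0.119).

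**Figure D4:**
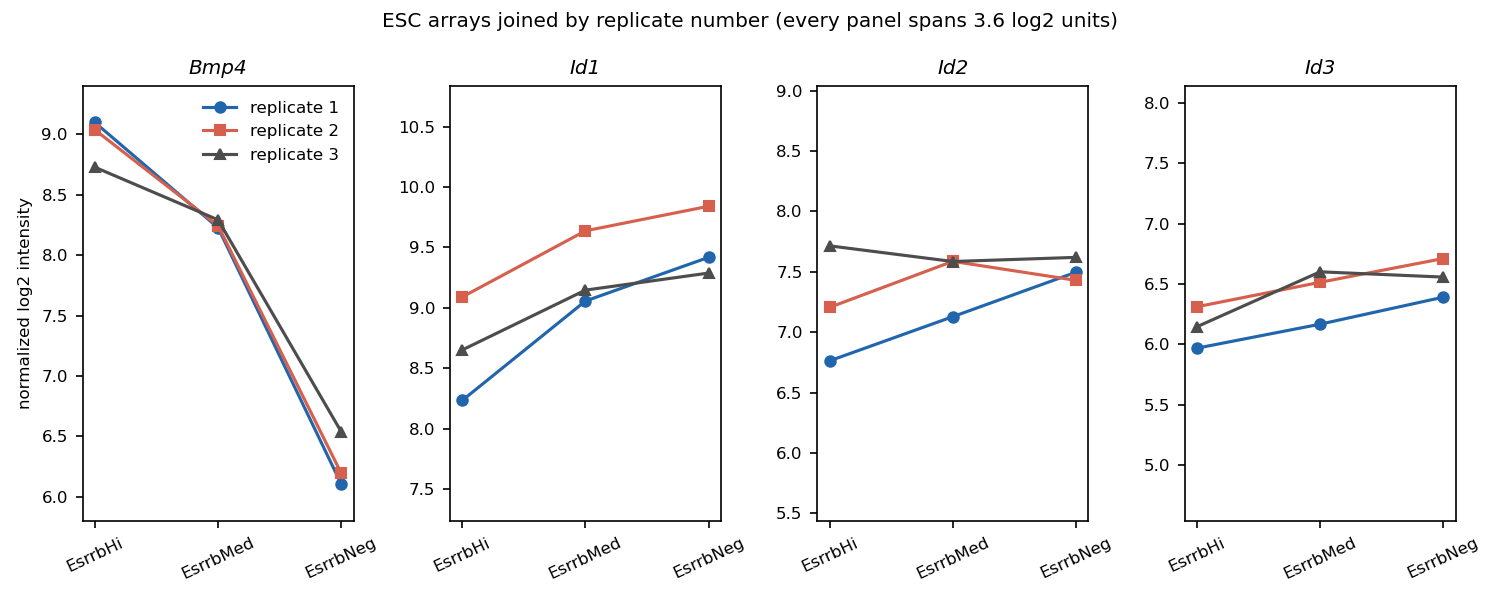
Normalized log2 intensity (y axis) of Bmp4, Id1, Id2 and Id3 in the 3 sorted ESC fractions (x axis), with lines joining arrays of the same replicate number. Bmp4 falls and Id1 rises along every line, whereas the Id2 line of replicate 3 starts at 7.72 in EsrrbHi and ends at 7.62 in EsrrbNeg.

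Id1 was lower in EpiSC than in EsrrbNeg by 1.42 ± 0.39 on the log2 scale (−1.42, 2.68-fold, adjusted p = 0.00982) and than in EsrrbMed by −1.18 ± 0.39 (2.27-fold, adjusted p = 0.0198), both called. The former was called on leaving out any single array, and without the detection filter neither was (adjusted p = 0.0635 and 0.105). The latter was lost without EpiSC replicate 3 (−0.78, adjusted p = 0.0631) or EsrrbMed replicate 3 (−1.20, adjusted p = 0.105). Against EsrrbHi the difference was −0.56 ± 0.39 (adjusted p = 0.235), with an interval from −1.40 to 0.28. Without EpiSC replicate 2, the array with the highest Id1 of that group, it was −1.01 (adjusted p = 0.0124) and called. On chip 2 alone, where each ESC group had 1 array, EpiSC differed by −1.32, −1.17 and −0.68 from EsrrbNeg, EsrrbMed and EsrrbHi, none of which passed.

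Id2 was lower in EpiSC and showed no called difference between ESC fractions by its brighter probe. This probe (ILMN_1228557) read 6.76, 7.21 and 7.72 in EsrrbHi, 7.13, 7.59 and 7.59 in EsrrbMed, 7.50, 7.43 and 7.62 in EsrrbNeg, and 6.53, 7.27 and 6.52 in EpiSC. EpiSC lay below EsrrbNeg and overlapped EsrrbHi and EsrrbMed through its replicate 2. The differences in EpiSC were −0.99 ± 0.23 against EsrrbNeg (1.99-fold, adjusted p = 0.00417), −0.91 ± 0.23 against EsrrbMed (1.88-fold, adjusted p = 0.00515) and −0.70 ± 0.23 against EsrrbHi (1.63-fold, adjusted p = 0.0205). The last was lost without EsrrbHi replicate 3 (−0.40, adjusted p = 0.306), EpiSC replicate 1 (−0.58) or EpiSC replicate 3 (−0.58). On chip 2 alone the differences were −0.85, −0.81 and −0.94, and none passed.

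The second Id2 probe (ILMN_1236868) read 5.37, 5.80 and 5.92 in EsrrbHi, 5.81, 6.12 and 6.26 in EsrrbMed, 5.96, 6.51 and 6.41 in EsrrbNeg, and 5.60, 5.79 and 5.64 in EpiSC. EsrrbNeg lay above EsrrbHi on all arrays by this probe, by 0.60 ± 0.15 (adjusted p = 0.00513, called), where the brighter probe gave 0.29 ± 0.20 (adjusted p = 0.283). Both probes were lower in EpiSC than in EsrrbNeg (−0.80 ± 0.17 for the second, adjusted p = 0.00208, called). Against EsrrbMed the second probe gave −0.57 ± 0.17 (adjusted p = 0.0116, under 1.5-fold), and against EsrrbHi −0.20 ± 0.17 (adjusted p = 0.333). The fall of Id2 between EsrrbNeg and EpiSC was thus called with either probe in the main fit. With the authors' log2 table it was −0.48, or −0.52 with a chip term, and fell below 1.5-fold. The Id2 difference of EpiSC from EsrrbMed was −0.42 and −0.46 with that table and lost its call too. The remaining probe was detected on 2 arrays and was not tested.

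Id3 followed the order of Id1 in smaller steps, and none of its differences was called. It read 5.97, 6.31 and 6.15 in EsrrbHi, 6.17, 6.51 and 6.60 in EsrrbMed, 6.39, 6.71 and 6.56 in EsrrbNeg, and 6.27, 6.16 and 5.79 in EpiSC (probe ILMN_2687169). EsrrbNeg lay above all arrays of EsrrbHi and of EpiSC. It exceeded EsrrbHi by 0.41 ± 0.15 (1.33-fold, adjusted p = 0.0406), in 3 of 3 replicates (0.42, 0.40 and 0.41). EpiSC was below EsrrbNeg by −0.54 ± 0.17 (1.45-fold, adjusted p = 0.0213), which passed 1.5-fold without EpiSC replicate 1 (−0.64, adjusted p = 0.0137).

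The 3 Id genes varied together over the 12 arrays, and Bmp4 had little linear correlation with them over the same arrays. After removal of the chip term, Pearson's r was 0.91 for Id1 and Id2, 0.89 for Id1 and Id3 and 0.72 for Id2 and Id3. For Bmp4 it was −0.01 with Id1, 0.19 with Id2 and −0.04 with Id3. These values pool the ESC fractions, across which Bmp4 fell and Id1 rose, with EpiSC, where both averaged below EsrrbHi. Bmpr1a, Smad1 and Smad5 correlated with one another at 0.75 to 0.85 and with Bmp4 at −0.86, −0.77 and −0.75. These values describe 12 arrays in 4 groups that share chips, replicate numbers and culture, so the correlations include the differences between groups.

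Of the 8486 other named genes tested, those most like Bmp4 over the arrays were S100a11 (r = 0.99), which encodes a calcium-binding protein, Lima1 (0.98), an actin-binding protein, and Jam2 (0.98), a junctional adhesion protein. Id1 was most like Eif4ebp2, Setd5 and Txn2 (each r = 0.94), Id2 most like Pwwp2b (0.96), Spry4 (0.95) and Spen (0.95), and Id3 most like 2610507B11Rik, Msn and Wdr55 (each 0.91). Jam2 averaged 7.35, 6.47, 4.46 and 4.79 in EsrrbHi, EsrrbMed, EsrrbNeg and EpiSC, the same order as Bmp4. Spry4, an inhibitor of FGF receptor signalling, averaged 6.34, 6.59, 6.72 and 5.73, the order seen in Id2.

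Some pathway genes named from here on passed the filter only through the group or groups where they were detected on every array. These are Bmp8b, Bmp7, Rgma, Zeb2, Smurf1, Fst, Cer1, Bmp1, Nbl1, Msx1, Cdx2, Tbx3, Gata2, Gata3 and Tcf12. Their calls against a group that did not detect them on every array, also where they enter the counts or the median of a list, are a description. Calls of pathway genes were also recomputed on leaving out each array, an alternative chosen after seeing the data.

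Other ligand genes were mostly not detected. Of 13 ligands listed, 12 were on the array and 4 were tested, Bmp4 among them, with median differences between −0.19 and 0.05 over the 6 comparisons. Besides Bmp4, Bmp8b was called in EsrrbNeg against EsrrbHi (higher, at least 1.24-fold, detected on the 3 EsrrbNeg arrays and on 0 others) and Bmp7 in all 3 comparisons with EpiSC. Bmp7 was higher in EpiSC by 1.51 ± 0.15 against EsrrbNeg and 1.54 ± 0.15 against EsrrbHi, where 1 array of each group detected it, and at least 2.52-fold against EsrrbMed, where no array did. The call of Bmp8b was lost without EsrrbNeg replicate 1 (0.56). Bmp2 and Bmp6 were detected on 0 arrays. The ligand that fell and the ligand that was higher in EpiSC were thus different genes.

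Of 10 receptors and co-receptors 5 were tested, and 0, 1, 1, 1, 3 and 4 were higher over the 6 comparisons (EsrrbMed against EsrrbHi, EsrrbNeg against EsrrbMed, EsrrbNeg against EsrrbHi, then EpiSC against EsrrbNeg, EsrrbMed and EsrrbHi), with 0 lower in each. The shares called higher over all features were 0.478%, 5.73%, 9.06%, 12.1%, 17.1% and 18.5% in the same comparisons, and those called lower 0.703%, 6.17%, 9.06%, 8.96%, 13.4% and 14.9%. Their median differences were 0.09, 0.20, 0.45, 0.32, 0.63 and 0.77. Bmpr2, the type II receptor of BMP ligands, was higher in EsrrbNeg than in EsrrbMed (0.97 ± 0.12, adjusted p = 3.70e-05) and EsrrbHi (0.91 ± 0.12, adjusted p = 3.44e-05). It was higher in EpiSC too, by 1.39 ± 0.14 against EsrrbMed and 1.34 ± 0.14 against EsrrbHi. Rgma, a co-receptor, was higher in EpiSC by 1.46 ± 0.15 against EsrrbNeg, where 1 array detected it, and at least 2.68-fold and 2.76-fold against EsrrbMed and EsrrbHi, where it was not detected. Acvr1, a further type I receptor, was called in EpiSC against EsrrbHi only (0.77 ± 0.23, adjusted p = 0.0125), which was lost without EsrrbHi replicate 3 (0.31, adjusted p = 0.367). Bmpr1b, Acvrl1 and Acvr2a were detected on 0 arrays.

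Among SMADs and their nuclear partners, 7 of 9 listed genes were tested and the called ones were Smad1 and Smad5, with median differences between −0.04 and 0.24. Of 11 intracellular inhibitors 6 were tested, with median differences between 0.01 and 0.15. Zeb2, a repressor that binds SMADs, was higher in EpiSC by 0.76 ± 0.16 against EsrrbNeg, where 2 arrays detected it, and at least 1.51-fold and 1.55-fold against EsrrbMed and EsrrbHi, where it was not detected. Skil, a SMAD corepressor, was higher in EsrrbNeg than in EsrrbHi (0.85 ± 0.16, adjusted p = 0.000881) and lower in EpiSC than in EsrrbNeg (−0.59 ± 0.19, adjusted p = 0.0208). The latter lay at 1.5-fold and was lost on leaving out any of 7 single arrays (−0.39 without EpiSC replicate 3). Smurf1, a ubiquitin ligase for SMAD1 and SMAD5, was lower in EsrrbNeg than in EsrrbHi (−0.59 ± 0.17). By its best probe it was detected on 3 EsrrbHi and 2 EsrrbNeg arrays. The call was lost without EsrrbHi replicate 3 (−0.45), EsrrbMed replicate 1 (−0.57) or EsrrbNeg replicate 2 (−0.51). Smad7 and Bambi, further inhibitors that the pathway induces, were detected on 0 arrays.

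Of 19 extracellular antagonists and regulators 8 were tested, with 0, 2, 4, 5, 4 and 6 higher and 0, 1, 1, 0, 1 and 1 lower over the 6 comparisons. Over all features, 0.478%, 5.73%, 9.06%, 12.1%, 17.1% and 18.5% were higher and 0.703%, 6.17%, 9.06%, 8.96%, 13.4% and 14.9% lower. The 8 had median differences of 0.03, 0.28, 0.44, 0.78, 0.80 and 0.93. Fst, Cer1, Bmp1 and Nbl1 passed the filter only through EsrrbNeg, EpiSC or both, so these counts and medians are a description. Fst, which binds activin and BMPs, was not detected in EsrrbHi or EsrrbMed. In EsrrbNeg it read 5.41, 5.30 and 7.15, with replicate 3 far above the others, and in EpiSC 7.73, 9.03 and 8.42. It was at least 2.44-fold and 2.37-fold higher in EsrrbNeg and at least 13.3-fold and 12.9-fold higher in EpiSC. EpiSC exceeded EsrrbNeg by 1.97 ± 0.38 (3.91-fold). Without EsrrbNeg replicate 3 the bounds for EsrrbNeg were 1.62-fold and 1.57-fold, and the difference of EpiSC from EsrrbNeg was 2.87 ± 0.35.

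Chrd, the BMP antagonist chordin, was 0.67 ± 0.18 higher in EsrrbNeg than in EsrrbHi (adjusted p = 0.00831) and 2.22 ± 0.21 higher in EpiSC (adjusted p = 1.11e-06). The former was lost without EsrrbNeg replicate 3 (0.43, adjusted p = 0.0704) or EsrrbHi replicate 3 (0.54, adjusted p = 0.0608). Bmp1 encodes a protease that cleaves chordin and not a BMP ligand, and was higher by 1.46 ± 0.21 and 3.36 ± 0.25 in the same comparisons, with 1.12 ± 0.17 for the first without EsrrbNeg replicate 3. Cer1, a secreted antagonist of Nodal and BMPs, was 0.86 ± 0.17 higher in EpiSC than in EsrrbNeg, where 1 array detected it, and at least 1.72-fold higher than in EsrrbHi. Htra1, a secreted protease, was lower in EsrrbNeg (−1.46 ± 0.11) and EpiSC (−1.17 ± 0.13) than in EsrrbHi. Nbl1, of the same list, was at least 1.13-fold higher in EsrrbNeg and at least 1.24-fold higher in EpiSC than in EsrrbHi. The former call was lost without EsrrbHi replicate 1 or 2, EsrrbMed replicate 1 or EsrrbNeg replicate 1 (0.53 to 0.55). Nog was detected on 0 arrays.

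Other target genes moved in both directions. Of 18 targets listed 9 were tested, Id1, Id2 and Id3 among them, with 0, 2, 2, 1, 2 and 3 higher and 1, 1, 1, 2, 5 and 2 lower over the 6 comparisons. Over all features, 0.478%, 5.73%, 9.06%, 12.1%, 17.1% and 18.5% were higher and 0.703%, 6.17%, 9.06%, 8.96%, 13.4% and 14.9% lower. The median differences of the 9 were 0.29, 0.13, 0.33, −0.49, −0.61 and −0.26. Msx1, a homeobox gene, was at least 2.67-fold higher in EsrrbNeg and at least 2.49-fold higher in EpiSC than in EsrrbHi, where it was not detected, and 1.13 ± 0.20 higher in EsrrbNeg than in EsrrbMed. Cdx2, a homeobox gene of trophectoderm and posterior embryo, read 5.15, 4.88 and 6.50 in EsrrbNeg and 7.85, 8.73 and 8.74 in EpiSC. It was at least 1.79-fold higher in EsrrbNeg and at least 13.7-fold higher in EpiSC than in EsrrbHi. Without EsrrbNeg replicate 3 the bound for EsrrbNeg was 1.27-fold, its call against EsrrbMed was lost (0.52 ± 0.24, adjusted p = 0.148), and the difference of EpiSC from EsrrbNeg was 3.41 ± 0.31 in place of 2.59 ± 0.34. The call against EsrrbMed was also lost without EsrrbMed replicate 3 (0.67, adjusted p = 0.155). Tbx3, a T-box factor of naive cells, was lower in EsrrbMed than in EsrrbHi (−0.90 ± 0.12, adjusted p = 0.00371). In EsrrbNeg it was below EsrrbHi by −2.49 ± 0.12, and in EpiSC, where it was not detected, at least 5.99-fold.

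Gata2 and Gata3 were lower in EpiSC than in EsrrbMed (−0.61 ± 0.12 and −0.76 ± 0.15), where 1 EpiSC array detected each. The call of Gata2 was lost on leaving out any of 5 single arrays (−0.51 to −0.58). Hey1 was higher in EpiSC than in EsrrbHi (0.77 ± 0.10). Atoh8, Msx2 and Prdm1 were detected on 0 arrays. Of the E proteins, the partners that Id proteins hold, Tcf12 was higher in EpiSC than in EsrrbHi (0.82 ± 0.17), where 1 array detected it, and at least 1.85-fold higher than in EsrrbMed. Tcf4 was higher than in EsrrbMed (0.66 ± 0.14), a call lost without EpiSC replicate 1 (0.56). That of Tcf12 against EsrrbMed was lost without EsrrbMed replicate 3 (0.58).

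**Figure D5:**
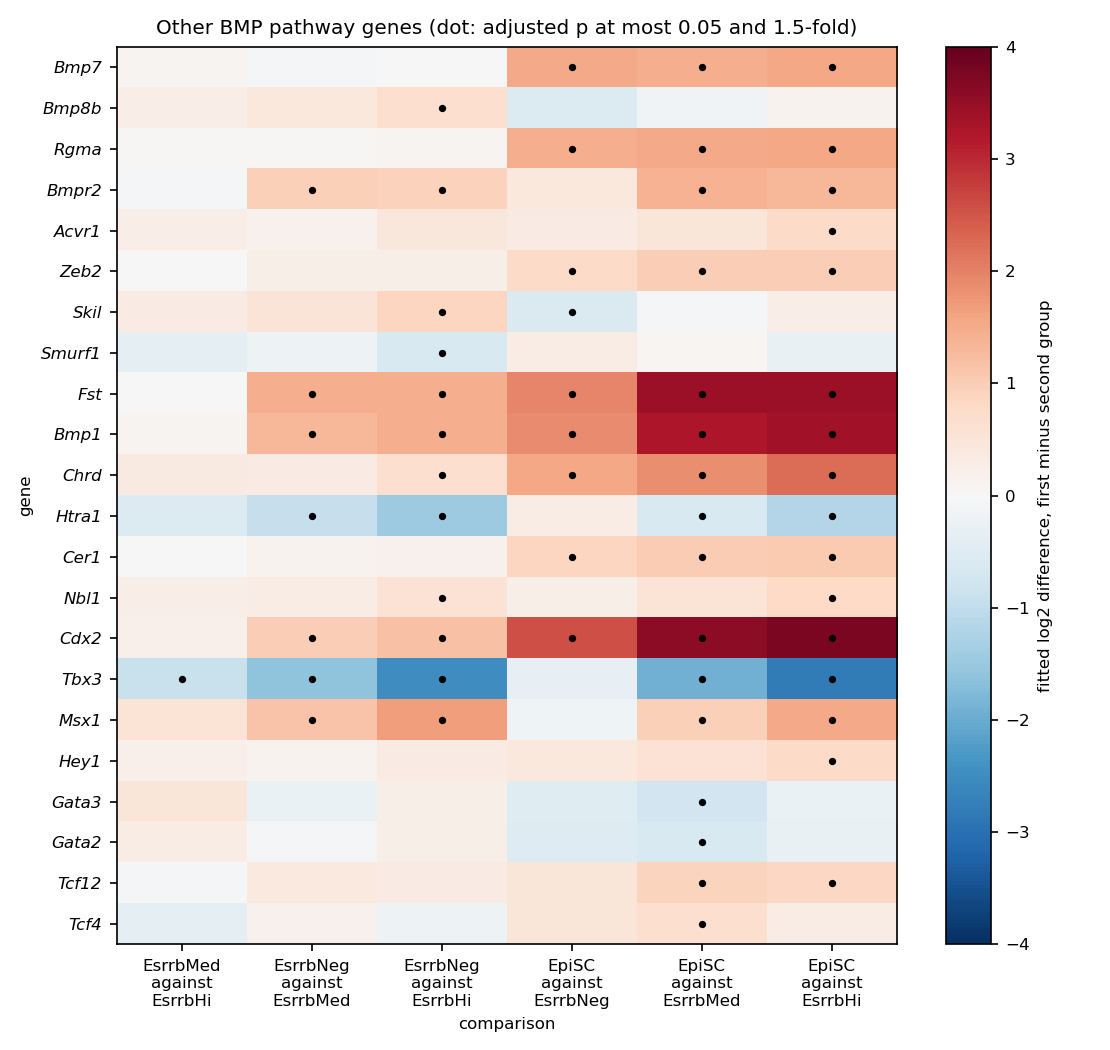
Fitted log2 difference (colour) of the called genes of the BMP pathway lists that are no members (rows) in the 6 comparisons (columns), with a dot where the gene was called. Fst, Bmp1 and Cdx2 are highest in EpiSC and Tbx3 and Htra1 are lower in EsrrbNeg and EpiSC than in EsrrbHi, and a fitted value against a group without detection is not a bound.

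The mean log2 level of 5 primitive streak and mesoderm markers tested of 10 listed was 6.97 to 7.20 on EpiSC arrays, 4.51 to 4.67 in EsrrbHi and EsrrbMed, and 4.40 to 5.64 in EsrrbNeg, whose replicate 3 was the highest. Of these, Eomes, Gsc, Fgf8 and Lhx1 passed the filter only through EpiSC, and Eomes is in the trophectoderm list as well. The higher means in EpiSC are therefore a description. Mixl1 and Mesp1 were detected on 0 arrays, Wnt3 on 2 EpiSC arrays and Tbx6 on 1 EsrrbNeg array by its best probe. The 4 fibroblast markers tested of 10 listed averaged 4.78 to 4.95 in EsrrbHi and 5.04 to 5.25 in EsrrbMed. In EsrrbNeg they averaged 5.57 to 5.76 and in EpiSC 5.68 to 6.28. These markers went both ways, since Mmp2 averaged 7.32 in EsrrbNeg and 6.54 in EpiSC. Thy1 averaged 5.88 and 6.30, Dcn 5.11 and 5.61, and Col1a1 4.24 and 5.14 in the same groups. Col1a2, Pdgfrb and Postn were detected on 0 arrays. Col1a1 was detected on 3 EpiSC arrays and on 0 ESC arrays. By the best probe, Dcn was detected on 3 EpiSC and 2 EsrrbNeg arrays, and Col3a1 and Lum on 1 EpiSC array each. Col1a1 and Dcn passed the filter only through EpiSC. Of 12 extraembryonic endoderm markers 3 were tested (4.96 to 5.34 in EsrrbHi and EsrrbMed, 5.51 to 5.98 in EsrrbNeg, 5.96 to 6.60 in EpiSC). Among them, Col4a2 passed only through EpiSC. Dab2 averaged 6.58 in EsrrbNeg and 6.06 in EpiSC, while Col4a1 averaged 5.94 and 6.61 and Col4a2 4.83 and 5.85. Gata4, Sox17, Afp and Ttr were detected on 0 arrays. By the best probe, Gata6 was detected on 2 EpiSC arrays and Sox7 on 2 EsrrbHi arrays. The 6 trophectoderm markers tested of 8 listed, which include Cdx2 and Gata3, ran from 5.69 to 6.08 in EsrrbHi and EsrrbMed, 5.96 to 6.57 in EsrrbNeg and 7.24 to 7.54 in EpiSC, with Elf5 and Hand1 at 0. Members of that list went both ways, since Tfap2c averaged 10.20 in EsrrbHi, 8.29 in EsrrbNeg and 8.88 in EpiSC and Gata3 was lowest in EpiSC (4.59), while Cdx2 averaged 8.44 there against 4.32 in EsrrbHi. The part of such cells in the levels of Bmp4 and the Id genes was not tested.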

How the data were processed

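Total RNA from 12 samples (100 ng each) was hybridized to Illumina MouseWG-6 v2 arrays. The deposited intensity values are linear bead summaries per probe that the authors read with beadarray and left without background correction or normalization. The authors' p-value columns give the detection p of each probe against the negative control beads. The deposited log2 table (38563 probes) holds values that the authors describe as quantile normalized and corrected for batch with ComBat, and served as an alternative. Tool versions and a genome build are not given in the sources used here.

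Intensities were processed in R 4.3.3 with neqc of limma 3.58.1 (background from the detection p, offset 16, quantiles). A probe was kept if some group had a detection p no higher than 0.01 on every array (14834 probes). The kept probe with the highest mean stood for a gene, giving 11089 features, of which 8487 had a name. A limma model with a coefficient per group and a chip term (7 residual and 6.08 prior degrees of freedom) gave 6 comparisons, with Benjamini-Hochberg adjustment over all features. The steps were tested on simulated data. Probe names came from the platform annotation, updated through a RefSeq table for GRCm38.p6 by gene identifier. Figures were drawn with matplotlib.

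The members and gene lists were chosen with earlier results of these data known. Named are all members and their probes, from each pathway list up to 6 called genes with the largest change, and the 3 genes most correlated with Bmp4, Id1, Id2 and Id3. Esrrb, Nanog, Pou5f1 and Fgf5 are named to describe the groups. Where no array of a group detected a probe, the fold is a bound from group means without the chip term.

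Same-numbered ESC arrays deviated together from their group means in all 9 pairs (r = 0.24 to 0.56). Replicate 3 also shares a chip, and differently numbered arrays on chip 1 reached r = 0.23 (EsrrbHi replicate 2 with EsrrbMed replicate 1). The main fit did not use the numbers, since the labels do not say that a number marks a shared culture. They were taken to pair the ESC arrays only in the replicate block and in differences within replicates. EpiSC arrays did not pair with them (r = −0.05 to 0.06). The number of arrays limits the precision. Alternatives covered background correction, scaling, the chip term, each chip alone, the replicate block, the filter, the choice of probe, the ESC arrays alone, the authors' log2 table and leaving out each array.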

Additional observations from a re-analysis of the deposited data

How the results depend on the processing

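Each tested gene in each comparison was fitted again under each alternative that allowed it. Of these pairs of a difference and an alternative, 1005 kept their side of the threshold, 60 lost a call and 27 gained one. In 0 of them did a called difference change sign. Most called differences lost their call under at least 1 alternative. Bmp4 in EpiSC against EsrrbMed and against EsrrbHi kept it under all 25. Bmp4 in EsrrbNeg lost its calls only on chip 2 alone, where each ESC group has 1 array. In EpiSC, the called differences of Bmpr1a, Smad1 and Smad5 lay between 1.52-fold and 1.69-fold, and those of Id2 between 1.63-fold and 1.99-fold. Smad1 in EpiSC against EsrrbHi lost its call under 11 of 25 alternatives with an adjusted p of at most 0.0222 in each, and Id2 under 13 of 25 (adjusted p up to 0.306).

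In EsrrbMed against EsrrbHi, the count of members called moved from 0 to 1 with the authors' log2 table with or without chip, on chip 1 alone and with the ESC arrays only, and to 2 with the replicate block. In EsrrbNeg against EsrrbMed it moved from 1 to 0 on chip 2 alone. In EsrrbNeg against EsrrbHi it moved from 1 to 2 with quantiles without background correction, with an offset of 50, with the log2 table with or without chip, on chip 1 alone, with the replicate block and with the ESC arrays only. On chip 2 alone each ESC arm is 1 array and the spread comes from the 3 EpiSC arrays, and Bmp4 was not called there. In EpiSC against EsrrbNeg it moved from 2 to 1 with the log2 table with or without chip and without a filter, and to 0 on chip 2 alone. In EpiSC against EsrrbMed it moved from 5 to 3 with quantiles without background correction, an offset of 50 and chip 2 alone, and to 2 with the log2 table with or without chip. In EpiSC against EsrrbHi it moved from 5 to 1 with quantiles without background correction, an offset of 50 and the log2 table with chip, to 2 with the log2 table, and to 3 without a chip term, on chip 2 alone and with the mean over probes. The causes of these moves were not tested.

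Leaving out single arrays gave 0 to 1, 1 to 2, 1 to 2, 2 to 3, 4 to 6 and 3 to 6 calls in the 6 comparisons. Over all features, quantiles without background correction called 31, 430, 745, 837, 1438 and 1679 features against 131, 1319, 2010, 2332, 3383 and 3707, an offset of 50 called 59, 693, 1117, 1263, 2063 and 2339, and the authors' log2 table called 32, 424, 725, 881, 1466 and 1670 (with chip 32, 424, 725, 858, 1441 and 1647). In EsrrbMed against EsrrbHi, median scaling called 51, no filter 70, detection on all arrays 86 and chip 2 alone 0. In EsrrbNeg against EsrrbMed, detection on all arrays called 843 and chip 2 alone 720, while in EsrrbNeg against EsrrbHi chip 2 alone called 1302, and 1373 for EpiSC against EsrrbNeg. In the replicate block, the pairing changed the ESC calls of Bmp4 (adjusted p = 0.0203) and Id1 (adjusted p = 0.0132 and 8.80e-05) given above and no other ESC call of a member. For EpiSC, whose numbers do not pair, the block in place of chip gave Id1 at −0.69 (adjusted p = 0.0125, called), Id2 at −0.46 (adjusted p = 0.0601) and Smad5 at 0.58 (1.5-fold not reached) against EsrrbHi. Signals near background limit Smad6, the second Bmp4 probe and all genes listed as not detected.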
